A study of Homo sapiens with 32 samples.

Results

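The genes described here are the cell-cycle and mitosis families, taken by name from all genes that had a merged m6A peak. A gene belonged if its symbol began with a family stem for cyclins, cyclin-dependent kinases (CDK) and their inhibitors (CDKN), CDC genes, MCM and ORC proteins, E2F factors, CENP, BUB, Aurora (AURK), polo (PLK) and NEK kinases, kinesins (KIF), condensins (NCAP), SMC proteins or centrosomal CEP proteins, followed by a number or letter where the family uses one. The rule took 153 of 7978 genes and 562 of 26104 merged peaks, and 1 antisense gene was dropped. The stems also took genes that share only a name with the cell cycle, among them the CDC42 GTPase and its effectors, kinesins that carry cargo along microtubules, and CDC37, CDC123, AURKAIP1 and MCM3AP, so the members were arranged by role and are described role by role.

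H1 (WA-01) and MEL1, 2 established human embryonic stem cell lines of different genetic background, were differentiated towards pancreatic β-cells in culture, and no group here carried a knockdown or knockout. S0 denotes undifferentiated cells, S3 cells at the posterior foregut stage, S4 cells at the pancreatic progenitor stage and S6 the immature β-like stage, with 2 preparations, described as independent, for each line and stage. Each of the 16 preparations gave an input library, which measures RNA level, and an IP library of fragments pulled down by an antibody against N6-methyladenosine (m6A). Libraries were made from RNA of whole cultures, so fewer dividing cells and less RNA per cell cannot be told apart. In tests within a line or between lines, p-values measure the spread between these preparations. In tests over both lines the spread also holds any difference between lines in the change with stage.

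A dividing cell loads MCM helicase rings onto replication origins marked by the ORC complex, copies its DNA, and then condenses, aligns and parts its chromosomes. CDKs bound to cyclins drive the order of these steps, CDKN proteins restrain them, and E2F factors switch on genes for DNA replication. Genes used in late G2 and mitosis commonly carry CCAAT boxes and a CHR element in their promoters, and replication genes carry E2F sites. Pluripotent stem cells are known for a short G1 phase and rapid division, and differentiated endocrine cells divide little. m6A is a methyl mark on adenosines of mRNA, most frequent near stop codons and in long exons, that reader proteins use to set the stability and translation of a transcript.

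Input libraries held 2652830 to 6879256 reads in merged peaks (median 4318760) and IP libraries 2378881 to 15674899 (median 13100407), the MEL1 S4 IP libraries being the shallowest at 2483580 and 2378881 reads. Member genes took 0.772% to 1.13% of input reads, and a gene's floor of 3 reads corresponded to 0.412 to 1.26 CPM, the unit of level here, in which reads are scaled to a common library size. Of the markers fixed for the labelled stages, all 8 foregut genes were called higher at S3 than at S0 (8 within H1 and 6 within MEL1) and 6 of 7 measured stem cell genes were called lower. Within lines 3 of the 7 were called lower in H1, with a median log2 fold change of -0.67, and all 7 in MEL1, with a median of -3.22. The pancreatic progenitor list did not mark S4, since 0 of its 4 measured genes (6 listed) were called between S3 and S4. Their sum went from 99.7 to 111.4 CPM at S3 to 101 to 101.8 CPM at S4 in H1 and from 42.65 to 43.04 CPM to 43.7 to 45.74 CPM in MEL1. The lines also stood apart. The 3 measured hepatic genes (AFP, APOA1 and VTN, of 5 listed) summed to 28010 to 31990 CPM in MEL1 and 433.8 to 440.4 CPM in H1 at S3, and to 61940 to 65100 CPM against 137 to 186.9 CPM at S4. The 3 measured neuronal genes (STMN2, NEFL and NEFM, of 6 listed) were all at 0 reads in MEL1 at S3 and summed to 3410 to 3539 CPM in H1 against 504.2 to 528.8 CPM in MEL1 at S6. The study counts STMN2 among γ-cell identity genes. The 3 measured endocrine genes (CHGA, ISL1 and GLIS3, of 10 listed) were all called higher at S6 than at S0. They summed to 794.3 to 821.2 CPM in H1 and 738.4 to 747.8 CPM in MEL1 at S6, against 233.3 to 243.3 CPM and 62.31 to 73.12 CPM at S0. The 7 stem cell genes summed to 1683 to 1760 CPM in H1 and 501.4 to 546 CPM in MEL1 at S3. Mitochondrial transcripts took 26.4% to 27.5% of input reads in H1 at S0 and S3, and went from 41% and 32.5% at S0 to 15.3% and 12.9% at S3 in MEL1. Levels are therefore given by line, and fold changes are over both lines unless a line is named.

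Between S0 and S3 many genes of DNA replication and mitosis fell. Of 153 members, 35 (22.9%) were called lower and 17 (11.1%) higher at S3, where 13.8% and 15.0% of all 7973 genes tested were called lower and higher. A gene was called at an adjusted p under 0.1 and at least a 2-fold change by the quasi-likelihood test of edgeR, with cell line in the model and p adjusted by the Benjamini-Hochberg method. The median log2 fold change was -0.37 over the members and -0.02 over all genes. Most of the lower calls lay in 6 roles, called division roles here and arranged after the table was seen. They were origin licensing, mitotic cyclin and CDC genes, centromere and kinetochore, mitotic kinesins, Aurora and polo kinases, and condensin with SMC proteins. The roles were uneven, with 1 lower call of 8 and a median of -0.12 for condensin with SMC proteins. In these roles together 26 of 57 genes were called lower and 3 higher, with a median of -0.98, against 9 lower and 14 higher of the other 96 members, with a median of -0.05. Summed over the 57 division genes, input level went from 5264.2 and 5264.4 CPM in H1 at S0 to 4126.8 and 4111.8 CPM at S3, and from 6149.3 and 5612.6 CPM to 2134.5 and 2091.8 CPM in MEL1. The sums at S3 lay below those at S0 in both lines, and the MEL1 sums at S3 lay below those of H1.

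Origin licensing and firing genes gave 7 lower and 0 higher calls of 12, with a median of -1.05, and all 12 fold changes were below 0. Within H1 none of the 12 was called and within MEL1 9 were called lower. MCM3, a subunit of the replicative helicase ring, stood at 765 and 781 CPM in H1 and 1117 and 906 CPM in MEL1 at S0 and at 495 and 487 CPM in H1 and 294 and 255 CPM in MEL1 at S3 (log2 fold change -1.28, SE 0.23, edgeR adjusted p = 0.00051). MCM4, another ring subunit, went from 59.9 and 66.2 CPM in H1 and 102 and 93.2 CPM in MEL1 to 48.7 and 57.5 CPM in H1 and 18 and 20.1 CPM in MEL1 (log2 fold change -1.42, SE 0.34, edgeR adjusted p = 0.0042). In both genes every S3 library of a line lay below the S0 libraries of that line, and the gap was wider in MEL1. MCM6 went from 56 and 66.8 CPM in H1 and 54.7 and 38.7 CPM in MEL1 to 41.6 and 50.3 CPM in H1 and 13 and 15.3 CPM in MEL1 (log2 fold change -1.0, SE 0.26, edgeR adjusted p = 0.00702). This call, at the 2-fold threshold, was lost with the replicate number as a block. ORC1, the largest subunit of the origin recognition complex, went from 68.6 and 56.6 CPM in H1 and 42.8 and 50.7 CPM in MEL1 to 47.5 and 48.6 CPM in H1 and 13.3 and 11.3 CPM in MEL1 (log2 fold change -1.10, SE 0.32, edgeR adjusted p = 0.0143). The remaining ring subunits were not called over both lines. Of these, MCM2 had a log2 fold change of -0.14 (0.50 in H1 and -0.81 in MEL1), MCM5 of -0.08 (-0.33 and 0.17) and MCM7 of -0.82 (-0.46 and -1.22, the latter called).

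Mitotic cyclin and CDC genes gave 4 lower and 0 higher calls of 9, with a median of -1.30, and 2 were called lower within H1 and 7 within MEL1. CCNB1, the cyclin that activates CDK1 at entry into mitosis, stood at 197 and 199 CPM in H1 and 204 and 190.4 CPM in MEL1 at S0 and at 85.7 and 91 CPM in H1 and 30.5 and 25.7 CPM in MEL1 at S3 (log2 fold change -2.04, SE 0.30, edgeR adjusted p = 9.38e-05). CDC20, which activates the anaphase-promoting complex, went from 452 and 456 CPM in H1 and 226 and 232 CPM in MEL1 to 239 and 199.8 CPM in H1 and 88.3 and 69 CPM in MEL1 (log2 fold change -1.30, SE 0.16, edgeR adjusted p = 1.99e-05). For both genes the S3 libraries lay below the S0 libraries in each line. CDC25A, a phosphatase that activates CDKs, went from 41.8 and 39.1 CPM in H1 and 50 and 66.6 CPM in MEL1 to 27.2 and 28 CPM in H1 and 12.3 and 11.3 CPM in MEL1 (log2 fold change -1.50, SE 0.35, edgeR adjusted p = 0.00341). Its relative CDC25C went from 13 and 14.3 CPM in H1 and 14.4 and 18.9 CPM in MEL1 to 8.08 and 11.7 CPM in H1 and 2.75 and 3.84 CPM in MEL1 (log2 fold change -1.37, SE 0.38, edgeR adjusted p = 0.00985). CDC25B was not called (log2 fold change -0.23). It moved from 46.4 and 38.4 to 75.5 and 71.9 CPM in H1 and from 43.2 and 49.2 to 18.5 and 16.2 CPM in MEL1. The CDC25B libraries of S3 thus lay above those of S0 in H1 and below them in MEL1.

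Aurora and polo kinases gave 3 lower and 1 higher call of 5. Within each line the numbers were the same, but the genes called lower were not all the same. AURKA, the kinase that matures centrosomes for the spindle, stood at 244 and 245 CPM in H1 and 331 and 286 CPM in MEL1 at S0 and 92 and 92.1 CPM in H1 and 51.5 and 51.5 CPM in MEL1 at S3 (log2 fold change -1.99, SE 0.26, edgeR adjusted p = 2.59e-05). AURKB, the kinase of the chromosomal passenger complex, went from 202 and 234 CPM in H1 and 223 and 279 CPM in MEL1 to 68.4 and 61.6 CPM in H1 and 44.3 and 47.4 CPM in MEL1 (log2 fold change -2.09, SE 0.22, edgeR adjusted p = 3.27e-06). S0 and S3 libraries did not overlap for either kinase in either line. PLK1, a kinase active through mitosis, went from 21.5 and 26.8 CPM in H1 and 4.73 and 8.05 CPM in MEL1 to 10.1 and 8.65 CPM in H1 and 2.25 and 6.54 CPM in MEL1 (log2 fold change -1.0, SE 0.43, edgeR adjusted p = 0.0733). The PLK1 libraries overlapped between stages in MEL1. PLK2, a stress-responsive polo kinase, moved the other way, from 9.90 and 7.73 CPM in H1 and 31.1 and 25.5 CPM in MEL1 to 92.8 and 82.4 CPM in H1 and 42.5 and 72.9 CPM in MEL1 (log2 fold change 2.34, SE 0.43, edgeR adjusted p = 0.000557).

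Centromere and kinetochore genes gave 5 lower and 2 higher calls of 14. In H1 they gave 3 lower and 2 higher calls with a median of 0.09. Their summed level in H1 overlapped between S0 (1362.1 and 1272.0 CPM) and S3 (1282.7 and 1314.3 CPM). In MEL1 they gave 7 lower and 2 higher calls with a median of -1.54. BUB1 and BUB1B are kinases of the spindle assembly checkpoint. BUB1 went from 61.1 and 56.6 CPM in H1 and 66.4 and 57.5 CPM in MEL1 to 20.9 and 22.2 CPM in H1 and 3.75 and 6.54 CPM in MEL1 (log2 fold change -2.47, SE 0.37, edgeR adjusted p = 8.87e-05). BUB1B went from 295 and 254 CPM in H1 and 217 and 206 CPM in MEL1 to 95 and 88.6 CPM in H1 and 28.8 and 22.3 CPM in MEL1 (log2 fold change -2.25, SE 0.31, edgeR adjusted p = 4.2e-05). Both checkpoint kinases fell in each line. CENPF, a large kinetochore protein of G2 and mitosis, went from 679 and 636 CPM in H1 and 924 and 803 CPM in MEL1 to 718 and 768 CPM in H1 and 118 and 118 CPM in MEL1 (log2 fold change -1.48, SE 0.46, edgeR adjusted p = 0.0184). The fall was carried by MEL1, since the H1 libraries of S3 lay slightly above those of S0. CENPA, the histone variant of the centromere, went from 22.7 and 15.9 CPM in H1 and 13.8 and 15 CPM in MEL1 to 4.14 and 6.18 CPM in H1 and 8.01 and 12.6 CPM in MEL1 (log2 fold change -1.14, SE 0.36, edgeR adjusted p = 0.0203), here with the wider gap in H1. CENPE, a kinetochore motor, was not called (log2 fold change -0.76, with -0.29 in H1 and -1.90 in MEL1). The higher calls were CENPB (1.15), which binds centromeric satellite DNA, and CENPS (1.53), whose reads could not be separated here from those of the overlapping readthrough gene CENPS-CORT.

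Mitotic kinesins gave 6 lower and 0 higher calls of 9, with a median of -1.69 and all 9 fold changes below 0. Within H1 1 of the 9 was called lower and within MEL1 all 9 were. KIF11, the motor that pushes spindle poles apart, went from 27.1 and 25.2 CPM in H1 and 36.6 and 24.4 CPM in MEL1 to 20.3 and 20.2 CPM in H1 and 5.0 and 5.19 CPM in MEL1 (log2 fold change -1.36, SE 0.36, edgeR adjusted p = 0.007). KIF20A, a motor of the central spindle, went from 152 and 153 CPM in H1 and 204 and 136 CPM in MEL1 to 76.1 and 81.2 CPM in H1 and 20 and 18.1 CPM in MEL1 (log2 fold change -1.96, SE 0.35, edgeR adjusted p = 0.000455). For both motors the drop was larger in MEL1 than in H1. Of the condensin and SMC genes, 1 of 8 was called, namely NCAPD2, a condensin I subunit. It went from 188 and 159 CPM in H1 and 368 and 317 CPM in MEL1 to 103 and 104 CPM in H1 and 60.1 and 52.8 CPM in MEL1 (log2 fold change -1.71, SE 0.30, edgeR adjusted p = 0.000347). SMC4 and NCAPG, also condensin subunits, were not called, with log2 fold changes of -0.56 (-1.13 within MEL1, where it was called lower) and -0.06. No condensin or SMC gene was called within H1.

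**Figure D1:**
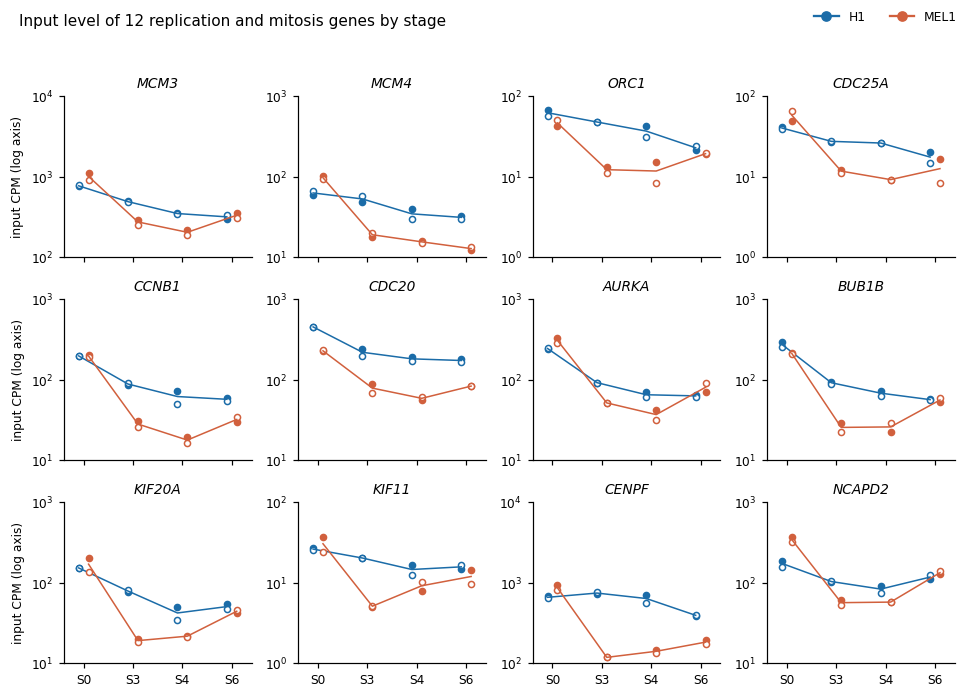
Input level (CPM, log axis) of 12 division genes at the 4 stages. Each point is 1 library, blue for H1 and orange for MEL1, filled for replicate 1 and open for replicate 2, and lines join the means of a line. Both lines start high at S0, and MEL1 drops to its lowest levels at S3 or S4, as for CENPF, which went from 924 and 803 CPM to 118 and 118 CPM in MEL1 and read 718 and 768 CPM in H1 at S3.

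Genes that set the pace of G1 gave few calls at S3 over both lines. Cyclin D genes gave 1 lower call of 2. CCND2, a cyclin that partners CDK4 and CDK6, stood at 82.1 and 85.5 CPM in H1 and 218 and 227 CPM in MEL1 at S0 and 48.1 and 49.6 CPM in H1 and 13.8 and 20.3 CPM in MEL1 at S3 (log2 fold change -1.71, SE 0.60, edgeR adjusted p = 0.0334). CCND1, its relative, was not called (log2 fold change -0.48), with 167 and 169.6 CPM in H1 and 294 and 354 CPM in MEL1 at S0 and 263 and 243 CPM in H1 and 43 and 48.5 CPM in MEL1 at S3, higher in H1 and lower in MEL1. CDK kinases gave 3 higher and 0 lower calls of 14. CDK2, which drives entry into S phase with cyclin E and cyclin A, went from 43 and 40 CPM in H1 and 32.9 and 30 CPM in MEL1 to 39.4 and 40.6 CPM in H1 and 182 and 169 CPM in MEL1 (log2 fold change 1.20, SE 0.39, edgeR adjusted p = 0.024). The S3 libraries of MEL1 were far above all others, and those of H1 overlapped S0. CDK10 went from 66 and 73 CPM in H1 and 6.38 and 8.92 CPM in MEL1 to 93.6 and 98 CPM in H1 and 87.3 and 84.8 CPM in MEL1 (log2 fold change 1.50, SE 0.50, edgeR adjusted p = 0.0266), and CDK20 from 1.69 and 2.50 CPM in H1 and 0.206 and 0 CPM in MEL1 to 7.09 and 7.21 CPM in H1 and 5.0 and 5.64 CPM in MEL1, with the MEL1 S0 libraries at or below the floor. CDK6 was not called (log2 fold change -0.69).

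Of the 4 CDK inhibitors, 1 was called at S3. CDKN1A (p21), a target of p53, went from 9.18 and 8.41 CPM in H1 and 41.1 and 59.2 CPM in MEL1 to 5.71 and 4.53 CPM in H1 and 13.5 and 11.5 CPM in MEL1 (log2 fold change -1.32, SE 0.52, edgeR adjusted p = 0.0565). CDKN1C (p57), an imprinted inhibitor, stood at 32.6 and 42.5 CPM in H1 and 7.20 and 17.6 CPM in MEL1 at S0 and 40.4 and 21.4 CPM in H1 and 374 and 841 CPM in MEL1 at S3 and was not called across lines (log2 fold change 2.47, SE 1.19, edgeR adjusted p = 0.112). The gain was in MEL1, where the preparations of a stage also differed from each other by over 2-fold, and not in H1. CDKN1B (p27) was not called (log2 fold change -0.42). None of the 7 E2F factors was called over both lines, with fold changes from -1.91 for E2F7, a repressor, to 0.44 for E2F2, an activator. E2F1 moved from 38.4 and 37.3 to 43.5 and 49.6 CPM in H1 and from 34.1 and 40.3 to 11.3 and 6.77 CPM in MEL1 (log2 fold change -0.73 over both lines). E2F3 and E2F8 were not called either, at -0.42 and -1.34. Within lines E2F1 and E2F7 were called lower in MEL1 and E2F2 higher in H1, and in the test of the difference between lines E2F1, E2F2, E2F3 and E2F7 were called lower in MEL1.

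Members whose stem is shared with other cell functions are read beside the 15.0% higher and 13.8% lower calls of all genes. Transport and other kinesins gave 4 higher and 3 lower calls of 18. KIF12, a kinesin of epithelial tissues, went from 0.725 and 0.682 CPM in H1 and 1.23 and 0.653 CPM in MEL1 to 10.2 and 12.4 CPM in H1 and 42 and 39.7 CPM in MEL1 (log2 fold change 5.12, SE 0.60, edgeR adjusted p = 1.03e-05). KIF26B went from 0.966 and 0.909 CPM in H1 and 2.26 and 0 CPM in MEL1 to 12.6 and 10.1 CPM in H1 and 62.1 and 75.6 CPM in MEL1 (log2 fold change 4.95, SE 0.83, edgeR adjusted p = 0.000274). In both genes each S3 library was above each S0 library, which lay about the floor. KIF17 went the opposite way, from 7.49 and 7.73 CPM in H1 and 5.96 and 5.66 CPM in MEL1 to 1.38 and 0.206 CPM in H1 and 0 and 0.226 CPM in MEL1, with MEL1 at or near the floor at S3. KIF1A, an axonal motor for synaptic vesicle precursors, went from 306 and 312 CPM in H1 and 169 and 244 CPM in MEL1 to 183 and 166 CPM in H1 and 52 and 54.4 CPM in MEL1 (log2 fold change -1.34, SE 0.30, edgeR adjusted p = 0.0027). KIF21B went from 7.73 and 6.14 CPM in H1 and 3.50 and 2.18 CPM in MEL1 to 2.76 and 4.12 CPM in H1 and 0 and 0 CPM in MEL1 and had no reads in MEL1 at S3. CDC42 and its effectors gave 3 higher and 0 lower calls of 9, centrosomal CEP genes 2 higher and 3 lower of 20, other cyclins 1 and 1 of 5, genes matched by name only 1 and 0 of 10, and NEK kinases and CDK5 with its partners none of 4 and none of 3.

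Over both lines, genes of the same processes that lie outside the name families moved with the division roles. On a fixed list of such proliferation genes, 53 of 76 were measured. Of these, 28 were called lower and 0 higher between S0 and S3, where 13.8% and 15.0% of all genes were called. Their median log2 fold change was -1.05. Their summed level went from 6441 and 6634 CPM to 4914 and 5022 CPM (lowest and highest library) in H1 and from 7548 and 8337 CPM to 2484 and 2786 CPM in MEL1. Of 8 measured genes of the RB pathway and anaphase complex (17 listed), 0 were called in either direction, and of 8 measured cohesin genes (10 listed), 1 was called higher and 1 lower. Of 54 cell-cycle genes fixed by name for description, 40 had counts, and the remaining 14, such as CCNE1, CCNA2, CDK1 and CDC6, were not analysed here.

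The promoters of members that moved together are shown because the sequence elements of G2 and mitosis genes were found in a larger share of the genes called lower than of all promoters. RefSeq promoter windows (GRCh38.p14, 250 bases before to 50 bases after the start) were matched for 131 of 153 members. They were searched on both strands for CHR (TTTGAA or TTCGAA), for CCAAT, and for E2F-type sites (TTCCCGC or else TTGGCGC or else TTGCCGC or else TTCGCGC), where a CCAAT match on the other strand (ATTGG) can share letters with TTGGCGC. Of 31 matched promoters of genes called lower at S3, 16 (51.6%) held CHR, 23 (74.2%) CCAAT and 12 (38.7%) an E2F-type site. Of 12 matched promoters of genes called higher, 2 (16.7%), 5 (41.7%) and 6 (50.0%) did, and of 88 promoters of members not called, 15 (17.0%), 36 (40.9%) and 30 (34.1%) did. Over 15842 promoters of coding genes the shares were 13.5%, 36.4% and 17.1%. 5 examples follow, 5′ to 3′ on the gene's strand, with matched letters in capitals, chosen to show a mitotic activator, a kinetochore protein, a condensin, a helicase subunit and a gene that rose.
CDC20, chr1:43358731-43359030, plus strand, 2 CHR and 2 CCAAT matches: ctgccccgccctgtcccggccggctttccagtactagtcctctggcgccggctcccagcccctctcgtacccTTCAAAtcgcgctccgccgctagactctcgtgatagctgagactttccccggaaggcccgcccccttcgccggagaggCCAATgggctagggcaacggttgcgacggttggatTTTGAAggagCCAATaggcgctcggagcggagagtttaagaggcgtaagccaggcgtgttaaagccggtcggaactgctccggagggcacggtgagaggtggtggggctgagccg
CENPF, chr1:214602945-214603244, plus strand, 1 CHR and 4 CCAAT matches: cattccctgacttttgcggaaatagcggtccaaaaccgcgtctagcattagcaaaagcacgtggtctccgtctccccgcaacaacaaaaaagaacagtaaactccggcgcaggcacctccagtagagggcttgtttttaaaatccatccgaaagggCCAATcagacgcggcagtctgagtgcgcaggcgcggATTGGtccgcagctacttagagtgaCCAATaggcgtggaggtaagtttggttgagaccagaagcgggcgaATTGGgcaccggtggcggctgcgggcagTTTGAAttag
NCAPD2, chr12:6493852-6494151, plus strand, 1 CHR and 4 CCAAT matches: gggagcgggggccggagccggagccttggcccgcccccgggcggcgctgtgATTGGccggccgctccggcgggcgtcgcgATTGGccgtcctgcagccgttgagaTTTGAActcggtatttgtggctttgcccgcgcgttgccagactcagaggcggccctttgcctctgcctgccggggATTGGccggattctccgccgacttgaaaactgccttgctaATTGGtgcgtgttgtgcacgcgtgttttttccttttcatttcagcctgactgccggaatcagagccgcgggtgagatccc
MCM3, chr6:52284693-52284992, minus strand, 3 CCAAT and 3 E2F-type matches: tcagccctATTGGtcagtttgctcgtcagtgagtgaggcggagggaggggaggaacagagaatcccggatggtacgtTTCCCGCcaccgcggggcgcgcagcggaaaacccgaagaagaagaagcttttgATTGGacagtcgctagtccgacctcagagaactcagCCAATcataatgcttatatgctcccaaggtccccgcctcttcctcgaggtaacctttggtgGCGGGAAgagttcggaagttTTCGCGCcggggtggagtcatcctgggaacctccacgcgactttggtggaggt
PLK2, chr5:58460037-58460336, minus strand, 2 E2F-type matches: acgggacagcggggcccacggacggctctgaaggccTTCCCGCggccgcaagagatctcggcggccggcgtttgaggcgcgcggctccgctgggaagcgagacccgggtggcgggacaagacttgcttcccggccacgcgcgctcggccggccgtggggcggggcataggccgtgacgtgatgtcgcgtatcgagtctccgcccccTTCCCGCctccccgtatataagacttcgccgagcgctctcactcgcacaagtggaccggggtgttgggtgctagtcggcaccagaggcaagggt
The mitotic genes CDC20, CENPF and NCAPD2 carried CHR with CCAAT and no E2F-type site, MCM3 carried CCAAT with E2F-type sites and no CHR, and PLK2, which rose, carried E2F-type sites alone. Of the other mitotic genes called lower, BUB1, KIF11 and PLK1 also held CHR with CCAAT and no E2F-type site, and others differed. CCNB1 held CCAAT and an E2F-type site without CHR, AURKB and KIF20A held CCAAT alone, BUB1B held CHR alone, CDC25C held an E2F-type site alone, and CENPA held all 3 elements. A match is a run of letters and not a measured binding site, and no binding was measured in these samples.

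How far the division genes fell by S3 depended on the line. By contrasts within a line, taken from the fit of all input libraries, 13 members in H1 were called lower and 13 higher between S0 and S3 (9.38% and 12.5% of all genes), with a median of -0.01, and in MEL1 55 were lower and 23 higher (22.0% and 22.9%), with a median of -0.51. In the 57 division genes these calls were 9 lower and 3 higher in H1 and 38 lower and 4 higher in MEL1. A test of the difference between lines (the line by stage interaction) called 54 of 153 members lower and 19 higher in the MEL1 change, where 17.5% and 16.5% of all genes were called (73 members, against 34.0% of all genes either way). Of the 57 division genes, 35 were called lower and 3 higher in this test. It included all 9 mitotic kinesins and 9 of 12 licensing genes on the lower side. The mitochondrial share given above moved with the same contrast, and without mitochondrial transcripts 36 of the 57 were called lower in this test in place of 35, and 27 in place of 26 over both lines. The hepatic and stem cell marker sums also moved with it, and their part in the result was not tested. Of the 53 proliferation genes outside the families, 35 were called lower and 0 higher in the same test. Within H1 3 of the 53 were called lower and 1 higher, where 9.38% and 12.5% of all genes were called. Within MEL1 41 were called lower and 0 higher, where 22.0% and 22.9% of all genes were called. CDK18 was the 1 member called in opposite directions, from 53.1 and 47.8 to 15.6 and 14.8 CPM in H1 and from 23.4 and 29.4 to 59.8 and 64.3 CPM in MEL1.

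CENPF gave a log2 difference between lines of -3.05 (edgeR adjusted p = 1.81e-10) and E2F7 a difference of -5.82 (edgeR adjusted p = 0.000168). E2F7 stood at 1.21 and 2.27 CPM in H1 and 17.9 and 13.1 CPM in MEL1 at S0 and 3.75 and 4.33 CPM in H1 and 1.25 and 0 CPM in MEL1 at S3, so MEL1 fell to about the floor while H1 did not fall. E2F2 stood at 0.483 and 0.455 CPM in H1 and 1.85 and 0.871 CPM in MEL1 at S0 and 3.55 and 3.71 CPM in H1 and 0.751 and 0 CPM in MEL1 at S3, a rise in H1 from levels near the floor (log2 difference -4.72, SE 1.56, edgeR adjusted p = 0.0213). CCND1 gave -3.41 and CCND2 -2.92, both D cyclins having fallen in MEL1 at S3. On the other side, CDKN1C gave 5.90 (edgeR adjusted p = 8.29e-07), CDK10 3.03, CDK2 2.53 and the kinesin KIF13B 3.65. CDKN2B (p15), an inhibitor of CDK4 and CDK6, gave 3.77, but its call rested on 1 library, since the MEL1 S3 preparations read 0.25 and 15.1 CPM and the value without MEL1 S3 replicate 2 was -1.04.

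**Figure D2:**
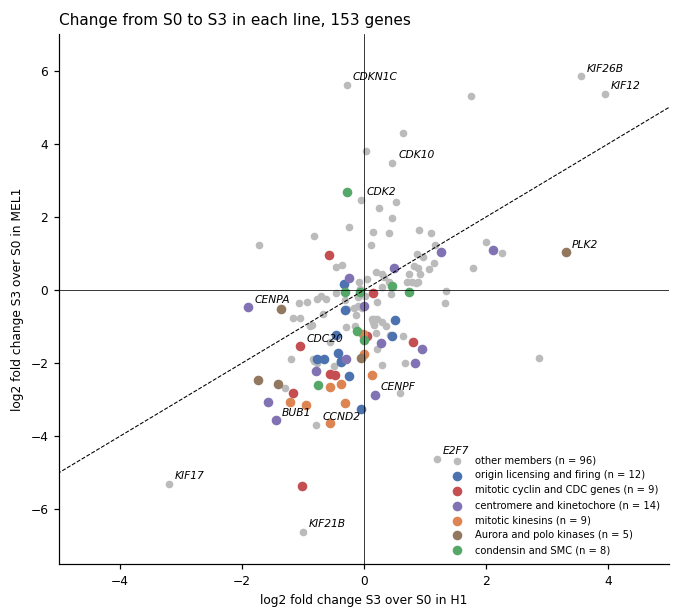
Log2 fold change from S0 to S3 of the members in H1 (x axis) and in MEL1 (y axis), each point 1 gene. The 6 division roles are coloured, the other 96 members are grey, and the dashed line marks equal change. Most coloured points lie below the line, as for CENPF at 0.18 in H1 and -2.87 in MEL1.

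Over both lines few members were called from S3 to S4. 1 member was called higher and 0 lower, where 1.49% and 0.351% of all genes were called, and 12 of 153 members (7.84%) had an unadjusted p under 0.05, against 13.5% of all genes. The member called was CCND2, which went from 48.1 and 49.6 CPM in H1 and 13.8 and 20.3 CPM in MEL1 at S3 to 85.7 and 72.2 CPM in H1 and 634 and 624 CPM in MEL1 at S4 (log2 fold change 2.68, SE 0.64, edgeR adjusted p = 0.0514). The rise was almost wholly in MEL1. There the 4 measured mesenchyme genes (COL1A1, COL1A2, TWIST1 and PDGFRB, of 8 listed) went with it, from a sum of 110.1 to 114.4 CPM at S3 to 719.2 to 787.8 CPM at S4, against 65.92 to 90.67 CPM in H1 at S4. Their part in the result was not tested. The call was lost when any of the 4 MEL1 libraries of S3 and S4 was left out, when the count of calls was 0, and with the replicate number as a block (edgeR adjusted p = 0.116). Leaving out H1 S3 replicate 1 gave 3 calls, and leaving out H1 S4 replicate 1 or H1 S4 replicate 2 gave 2. Within MEL1, 8 members were called higher and 5 lower (7.80% and 3.21% of all genes), and within H1 2 and 3 (4.30% and 1.88%). CCND1, called in MEL1 and not over both lines, went from 43 and 48.5 CPM to 416 and 492 CPM in MEL1 (log2 fold change within MEL1 3.31, edgeR adjusted p = 1.24e-11) and from 263 and 243 CPM to 372 and 276 CPM in H1. CDKN1A and CDKN2B were also called higher in MEL1 (3.07 and 3.16), and MCM5, CENPA and KIF20B were called lower there. The division genes summed to 3593.0 and 3075.3 CPM in H1 and 1961.4 and 2055.6 CPM in MEL1 at S4.

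From S4 to S6, 6 members were called higher and 1 lower, where 2.85% and 2.33% of all genes were called. CDKN1B, the p27 inhibitor that holds cells out of the cycle, stood at 143 and 113 CPM in H1 and 82.8 and 94 CPM in MEL1 at S4 and 205 and 223 CPM in H1 and 261 and 312 CPM in MEL1 at S6, and each S6 library lay above each S4 library (log2 fold change 1.20, SE 0.19, edgeR adjusted p = 0.00209). KIF5C, a neuronal kinesin heavy chain, went from 24.4 and 25.5 CPM in H1 and 11.3 and 6.27 CPM in MEL1 to 87.4 and 94.4 CPM in H1 and 31 and 29.9 CPM in MEL1 (log2 fold change 1.82, SE 0.34, edgeR adjusted p = 0.00528). KIF21B went from 1.98 and 5.62 CPM in H1 and 0 and 0 CPM in MEL1 to 17.2 and 16.5 CPM in H1 and 2.24 and 1.21 CPM in MEL1 (log2 fold change 2.26, SE 0.68, edgeR adjusted p = 0.0666), the MEL1 libraries of S4 having 0 reads. CDK8, a kinase of the Mediator complex, rose by a log2 fold change of 1.18, and CEP85, a centrosomal protein, by 1.17. Of these, CDK8 was not called with the replicate number as a block (edgeR adjusted p = 0.141). AURKB rose by 1.12, from 51.4 and 43.8 CPM in H1 and 40.3 and 26.9 CPM in MEL1 to 70.5 and 78.7 CPM in H1 and 105 and 98.4 CPM in MEL1, and did not regain its S0 level. KIF12 fell, from 5.18 and 4.80 CPM in H1 and 73.5 and 86.3 CPM in MEL1 to 2.49 and 2.21 CPM in H1 and 26.5 and 33.5 CPM in MEL1 (log2 fold change -1.28, SE 0.43, edgeR adjusted p = 0.0967; with the block 0.157). Within MEL1, 16 members were called higher and 9 lower (8.99% and 8.75% of all genes), and within H1 8 and 1 (4.64% and 3.84%). In MEL1 8 of the 57 division genes were called higher (AURKA, AURKB, BUB1B, KIF2C, KIF18B, KIF20A, KIF20B and NCAPD2) and 1 lower (ORC6). The higher ones had log2 fold changes within MEL1 from 1.03 (KIF20A) to 2.03 (KIF2C). In H1 no division gene was called. Between these stages the hepatic sum in MEL1 went from 61940 to 65100 CPM to 2863 to 2944 CPM, and the sum of the 4 measured mesenchyme genes (8 listed) from 719.2 to 787.8 CPM to 251.3 to 257.7 CPM. The part of both in the MEL1 calls was not tested. The neuronal genes given above moved with KIF5C and KIF21B, to 3410 to 3539 CPM in H1 and 504.2 to 528.8 CPM in MEL1 at S6, and their part in the result was not tested. The number of calls was 4 without MEL1 S4 replicate 1 and 3 without MEL1 S6 replicate 1.

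Over the whole course from S0 to S6, 42 members were called lower and 17 higher, where 13.8% and 17.5% of all genes were called, with medians of -0.33 over the members and 0.03 over all genes. This comparison shares the S0 libraries with that of S3. In the division roles 32 of 57 genes were called lower and 2 higher, and their summed level at S6 was 2892.4 and 2922.2 CPM in H1 and 2515.0 and 2545.9 CPM in MEL1. In H1 the sums went down at each stage, whereas in MEL1 those of S6 were above those of S3 and S4. Within H1, 29 members were called lower and 19 higher (11.4% and 16.1% of all genes). Within MEL1 these were 47 and 21 (19.3% and 22.7%). Of the 57 division genes, 22 were called lower in H1 and 34 in MEL1. BUB1 stood at 15.4 and 13.7 CPM in H1 and 10.5 and 6.05 CPM in MEL1 at S6 (S6 against S0, log2 fold change -2.56, SE 0.37, edgeR adjusted p = 6.09e-05), CCNB1 at 60 and 54.2 CPM in H1 and 29.5 and 34.7 CPM in MEL1 (log2 fold change -2.30, SE 0.31, edgeR adjusted p = 2.84e-05) and MCM4 at 32.7 and 30 CPM in H1 and 12.3 and 13.3 CPM in MEL1 (log2 fold change -2.09, SE 0.35, edgeR adjusted p = 0.000243). AURKA, AURKB, BUB1B, CDC20, CDC25A, CDC25C, CENPA, CENPF, KIF11, KIF20A, MCM3, NCAPD2 and ORC1 were also called lower at S6, with log2 fold changes from -2.07 (BUB1B) to -1.05 (NCAPD2). PLK1, MCM6, MCM2, MCM5, MCM7, CENPE, SMC4, NCAPG and CDC25B were not called at S6, with log2 fold changes from -1.53 (CENPE) to 0.06 (MCM2).

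G1 regulators were among the members called higher at S6 against S0. CCND1 rose to 404 and 404 CPM in H1 and 2309 and 2531 CPM in MEL1 (log2 fold change 2.41, SE 0.66, edgeR adjusted p = 0.00835), and the MEL1 libraries of S6 were above all others. CDKN1A stood at 9.06 and 12.3 CPM in H1 and 206 and 274 CPM in MEL1 and was called higher over both lines (log2 fold change 1.47, SE 0.49, edgeR adjusted p = 0.0232). The rise was in MEL1, and the H1 libraries of S6 overlapped those of S0. CDKN1C, at 141 and 133 CPM in H1 and 56 and 136 CPM in MEL1, was not called over both lines (log2 fold change 2.07) but was called higher within each (1.87 in H1 and 2.95 in MEL1). Within MEL1 all 4 CDK inhibitors were called higher at S6, with a median of 2.46, and within H1 CDKN1C alone. PLK2 stood at 30.9 and 37.9 CPM in H1 and 104 and 141 CPM in MEL1 at S6 (log2 fold change 2.04, SE 0.42, edgeR adjusted p = 0.00112). CEP19, a protein of the centrosome and cilium, went from 0.966 and 0.909 CPM in H1 and 0.617 and 0 CPM in MEL1 at S0 to 4.97 and 8.82 CPM in H1 and 2.61 and 1.61 CPM in MEL1 at S6 (log2 fold change 2.77, SE 0.55, edgeR adjusted p = 0.000923). CDK10 stood at 63.9 and 58.7 CPM in H1 and 78.1 and 71.8 CPM in MEL1 at S6, above S0 in MEL1 and below it in H1. E2F3 fell by 1.13 on the log2 scale. E2F7 was called lower over both lines (log2 fold change -2.04). MEL1 read 17.9 and 13.1 CPM at S0 and 2.61 and 1.21 CPM at S6. E2F7 did not fall in H1, which read 1.21 and 2.27 CPM and 1.60 and 3.09 CPM. Its call was lost with the replicate number as a block (edgeR adjusted p = 0.108), as was that of CDC14A (0.118). CDC14A, a phosphatase that opposes CDKs, fell from 1.93 and 1.36 CPM in H1 and 0.206 and 2.18 CPM in MEL1 to 0.178 and 0.882 CPM in H1 and 0 and 0 CPM in MEL1, both lines being low throughout. The kinesins KIF12 and KIF26B were still above S0, with log2 fold changes of 3.83 and 2.84.

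**Figure D3:**
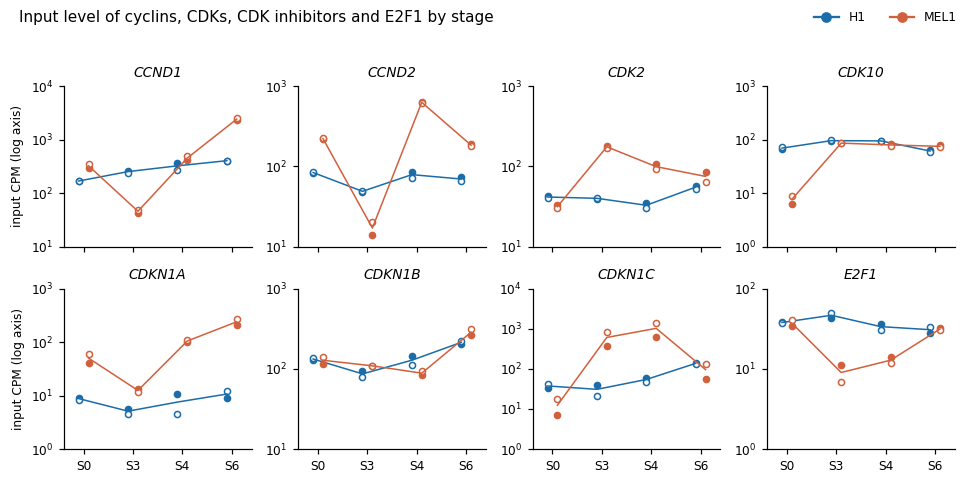
Input level (CPM, log axis) of 8 regulators of G1 and of CDK activity at the 4 stages, each point 1 library (blue H1, orange MEL1, filled replicate 1, open replicate 2), with lines through the means. CCND1 dips at S3 in MEL1 only, CDK10 in MEL1 climbs from 6.38 and 8.92 CPM at S0, and CDKN1B is highest at S6 in both lines.

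The lines also differed in level over the 4 stages together. 28 members were called lower and 12 higher in MEL1 than in H1, where 12.5% and 8.79% of all genes were called, with medians of -0.30 over the members and -0.09 over all genes. Of the 57 division genes, 16 were called lower in MEL1 and 1 higher. CDKN1A was higher in MEL1 (log2 difference 3.04, SE 0.15, edgeR adjusted p = 6.43e-13), as were CDKN2B (2.06), KIF12 (2.48) and NEK8 (1.83), a kinase of the primary cilium. KIF21B (-4.63), CDC14A (-2.53), CEP164 (-2.27) and CENPL (-2.15) were lower in MEL1, the KIF21B, CDC14A and CEP164 values being fitted against MEL1 libraries that held 0 reads at 1 stage or more. The change from S0 to S6 was called lower in MEL1 for 23 members and higher for 15, where 11.4% and 13.7% of all genes were called. Either way these are 38 members, a share near the 25.1% of all genes. CDK5R1, the neuronal activator of CDK5, was at 15.7 and 13.4 CPM in H1 and 16.9 and 15.4 CPM in MEL1 at S0 and 76.9 and 75.6 CPM in H1 and 6.72 and 11.7 CPM in MEL1 at S6 (log2 difference -3.21, SE 0.67, edgeR adjusted p = 0.00112). CEP170 was at 202 and 193 CPM in H1 and 229.7 and 176 CPM in MEL1 at S0 and 364 and 373 CPM in H1 and 75.1 and 60.1 CPM in MEL1 at S6 (log2 difference -2.48, SE 0.24, edgeR adjusted p = 2.57e-07), with reads that the near-identical CEP170P1 pseudogene may share. The rises in H1 of CDK5R1 and CEP170 at S6 stood beside the higher neuronal marker sums of H1 at that stage, whose part in the result was not tested. CDK10 (3.47), CDK20 (3.98), KIF12 (3.23) and KIF13B (3.01) gave the largest differences in favour of MEL1. At S0 CDK20 was at or below the floor in MEL1 and KIF12 was about the floor in both lines, so their folds and rank are uncertain.

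Methylation was read as the ratio of IP to input in each merged peak. For each preparation the ratio is log2(IP CPM + 1) minus log2(input CPM + 1), centred on the median of all peaks of that preparation, so that 0 is the typical peak and positive values are more enriched. Peaks are named here by the gene and the number that the deposited table gives after the gene identifier, and what that number counts from is not given in the sources used here. The members had a median of 3 peaks and up to 24, against 2 and 33 over all genes. Their median ratio lay below that of all peaks in 16 of 16 preparations, by 0.13 to 0.65. At S0, S3, S4 and S6, IP was called above input for 122, 122, 85 and 116 of the 562 member peaks (21.7%, 21.7%, 15.1% and 20.6%), where 30.3%, 30.8%, 20.6% and 28.5% of all peaks were called. IP was called below input for 192, 216, 216 and 244 of them (34.2%, 38.4%, 38.4% and 43.4%), where 26.0%, 30.1%, 33.2% and 34.5% of all peaks were. The count at S0 and S3 depended on the scaling, with 64 and 74 peaks called above input after scaling by DESeq2's median ratio in place of TMM. IP and input were scaled together over the merged peaks, so calls above and below input are relative to the other peaks. A peak called below input is not shown to lack m6A.

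The ratio varied with the role of the gene. Role by role, the median over peaks of the mean ratio of the 16 preparations was -2.29 for the D cyclins, -1.77 for mitotic cyclin and CDC genes, -1.72 for origin licensing, -1.69 for condensin and SMC genes, -1.06 for CDK kinases and -0.76 for mitotic kinesins. It was near 0 for centromere and kinetochore genes (-0.13), transport kinesins (0.19) and centrosomal CEP genes (0.20), and above 0 for E2F factors (0.62), NEK kinases (0.64) and CDK5 with its partners (1.29). The peaks of a gene share its transcripts and are not independent, so these medians are a description. IP was above input at all 4 stages for 59 member peaks (10.5%, against 14.9% of all peaks). They lay in 46 of 153 genes (30.1%, against 36.3% of all genes). IP was below input at all 4 stages for 155 peaks (27.6%, against 20.2%). An always enriched peak was found in 12 of 20 CEP genes, 7 of 18 transport kinesins, 3 of 7 E2F genes, 1 of 9 mitotic kinesins, 1 of 9 mitotic cyclin and CDC genes and 0 of 2 D cyclins.

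**Figure D4:**
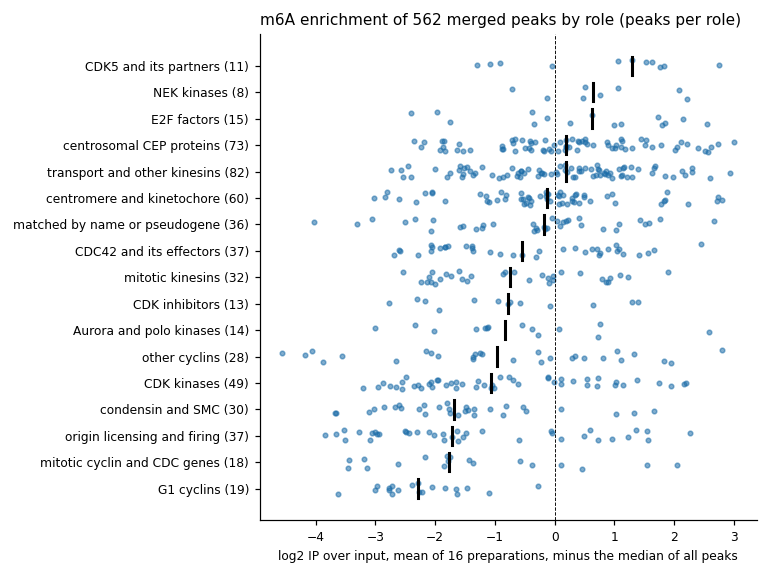
Mean log2 IP over input of the 562 member peaks, centred on the median of all peaks, by role. Each point is 1 peak averaged over 16 preparations, the bar is the role's median and 0 is the typical peak. The 19 peaks of the D cyclins all lie below 0 with a median of -2.29, and 41 of 73 peaks of centrosomal CEP genes lie above it.

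The 26 division genes called lower at S3 held 100 peaks, of which 79 had a mean ratio below 0. Of these 100 peaks, 42 in 15 genes were called below input at all 4 stages, where 20.2% of all peaks were, and 6 in 6 genes were called above it at all 4, where 14.9% of all peaks were. CDC20 had 5 peaks with mean ratios of -2.62 to -3.46, all of them called below input at all 4 stages. BUB1B had 6 peaks from -1.83 to -3.03, KIF20A 3 from -1.56 to -2.54, CCNB1 2 at -2.18 and -1.85, and MCM4 3 from -1.53 to -2.02. CDC25A, with 1 peak at 2.04, was enriched at all 4 stages instead. In a few genes 1 enriched peak stood among peaks of lower ratio. MCM3 peak 51 had a mean ratio of 1.56, where its other 4 peaks lay at -2.31 to -3.84. MCM2 peak 3951 had 1.22 beside 6 peaks at -2.10 to -3.67, and NCAPD2 peak 201 had 1.66 beside 9 peaks at -0.86 to -3.67. CENPF had 24 peaks from -1.16 to 1.77, of which peak 6401 was enriched at all 4 stages. PLK2 peak 169 stood at 2.58 beside others at -1.11 and -1.13. Of the E2F genes, E2F3 carried the peaks 1551 and 2251 at 2.54 and 2.15, E2F2 peaks at 1.84 and 1.73, E2F7 1 at 1.11 and E2F8 1 at 0.62, whereas the 3 peaks of E2F1 lay at -0.34 to -1.75.

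Among member peaks with at least 20 input reads at each stage, the 5 with the highest mean ratio lay in genes of several roles, among them the kinetochore genes CENPV and CENPL. CEP85L peak 7063 had ratios of 2.66 and 3.60 in H1 and 3.49 and 3.36 in MEL1 at S0, and of 2.96 and 3.19 in H1 and 4.03 and 3.62 in MEL1 at S6. CCNT2, a cyclin of the elongation factor P-TEFb, had peak 4051 at a mean ratio of 2.79. CDK5R1 peak 2651 stood at 2.74, CENPV peak 1531 at 2.74 and CENPL peak 765 at 2.72. CDK5R1 had 5 peaks, all above 0, from 1.05 to 2.74.

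No member peak was called for a change in m6A between S0 and S3, where 0.0306% of all peaks were called higher and 0.0230% lower. This test asks whether IP over input changed between stages (the interaction of stage and library type in edgeR's quasi-likelihood test, adjusted over all 26104 peaks). 24 of 562 member peaks (4.27%) had an unadjusted p under 0.05, against 5.75% of all peaks, and DESeq2 called 1. Fits of 1 line alone called far more, 30 member peaks in H1 (5.34%, against 6.09% of all peaks) and 38 in MEL1 (6.76%, against 8.80%). The median difference was -0.15 over member peaks and -0.12 over all peaks.

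From S3 to S4, 35 member peaks in 31 genes were called lower and 8 higher, where 6.60% and 0.808% of all peaks were called. The shares of members were 6.23% and 1.42%, near that of all peaks for the lower calls and above it for the higher calls, on 8 peaks. The split depended on the scaling, with 10 higher and 11 lower by DESeq2's median-ratio scaling, 8 and 13 with TMM within each library type, 9 and 17 with IP libraries thinned to 2378881 reads, and 27 and 23 in DESeq2. The median difference was -0.43 over all peaks and -0.28 over members, and the MEL1 S4 IP libraries were the shallowest of all. Single libraries decided the count, which was 2 without H1 S4 replicate 1, 19 without H1 S4 replicate 2, 26 without H1 S3 replicate 1, 24 without H1 S3 replicate 2 and 23 without MEL1 S3 replicate 2. Of the 35 lower peaks 8 had at most 3 IP reads over the 4 preparations of S4, and 22 had at least 100. A fit of H1 alone called far more member peaks, and the share of all peaks in that fit was not counted.

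From S4 to S6, 28 member peaks were called higher and 13 lower, where 5.70% and 2.04% of all peaks were called, and DESeq2 called 26 and 43. The count was 21 without H1 S4 replicate 1, 26 without H1 S4 replicate 2, 24 without H1 S6 replicate 1, 23 without MEL1 S6 replicate 1 and 23 without MEL1 S6 replicate 2. It was far larger in a fit of H1 alone, where the share of all peaks was not counted. Of all member peaks, 23 (4.09%) were called lower at S4 and then higher at S6, against 3.89% of all peaks, and 4 (0.712%) higher and then lower, against 0.479%. These comparisons share the S4 libraries, so a low or high reading at S4 enters both.

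Read by read, the named peaks differed in how much signal they held. CCNT2 peak 4051 fell from 3.15 and 2.96 in H1 and 3.33 and 4.00 in MEL1 at S3 to 2.03 and 1.29 in H1 and 2.65 and 1.40 in MEL1 at S4 (log2 difference -1.92, SE 0.40, edgeR adjusted p = 0.00854) and stood at 3.33 and 3.39 in H1 and 3.21 and 2.81 in MEL1 at S6 (log2 difference 1.61, SE 0.40, edgeR adjusted p = 0.0229). It rested on 14230, 3074 and 10478 IP reads at these stages. KIF5C peak 5251 held 303, 191, 0 and 625 IP reads at S0, S3, S4 and S6, so the fitted differences at S4 (edgeR adjusted p = 1.1e-05 and 1.5e-05) set 0 reads at S4 against the counts of the other stages and carry no fold. E2F4 peak 3001 held 39, 0 and 31 IP reads at S3, S4 and S6, NCAPD2 peak 2901 20, 0 and 47, and the pseudogene CENPBD2P peak 1751 128, 1 and 96. These 3 peaks held 1 IP read or none at S4.

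Of the peaks called higher at S4, CDC123 peak 2151 stood at -0.45 and -0.30 in H1 and -4.30 and -4.94 in MEL1 at S4, where H1 at S3 read -3.62 and -3.88 (log2 difference 3.23, SE 0.90, edgeR adjusted p = 0.039). The rise was in the H1 preparations alone. CDC123 is an assembly factor of translation initiation that shares only the stem of its name. CEP131 peak 2217 went from 2 to 47 IP reads and CCNG1 peak 301 from 0 to 10, counts too low for a fold. Lower at S6 than at S4 were KIF4A peak 3551, from 43 to 2 IP reads, CDK9 peak 801, from 67 to 3, and PLK2 peak 919, from 34 to 0. The calls of CEP131 peak 2217, CDK9 peak 801 and PLK2 peak 919 were lost with the replicate number as a block. Those of CDK9 and PLK2 also turned direction in H1 alone.

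Between S0 and S6, 1 member peak was called higher and 3 lower, where 0.0958% and 0.912% of all peaks were called. The count was 35 in DESeq2, 7 with the replicate number as a block, 51 in the H1 libraries alone (9.07%, against 10.8% of all peaks) and 60 in the MEL1 libraries alone (10.7%, against 10.9%). MCM3AP, named for its association with MCM3 and known for mRNA export, had peak 7511 at -0.05 and -0.36 in H1 and -1.48 and -1.21 in MEL1 at S0 and at 0.47 and 0.79 in H1 and 1.11 and 0.87 in MEL1 at S6 (log2 difference 1.43, SE 0.35, edgeR adjusted p = 0.0626). CDK12 peak 1701, in the transcript of a kinase of RNA polymerase II, went from 1.51 and 1.21 in H1 and 1.26 and 2.65 in MEL1 to 0.51 and 0.46 in H1 and 0.68 and 0.64 in MEL1 (log2 difference -1.27, SE 0.32, edgeR adjusted p = 0.0776). In both peaks each line moved the same way. The others called lower were PLK2 peak 919, with 121 IP reads at S0 and 0 at S6, and NCAPD2 peak 1451, with 45 and 0. The count was 0 without MEL1 S6 replicate 1, MEL1 S0 replicate 2 or MEL1 S6 replicate 2, 1 without H1 S6 replicate 1 or MEL1 S0 replicate 1, 2 without H1 S0 replicate 1 and 9 without H1 S0 replicate 2.

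**Figure D5:**
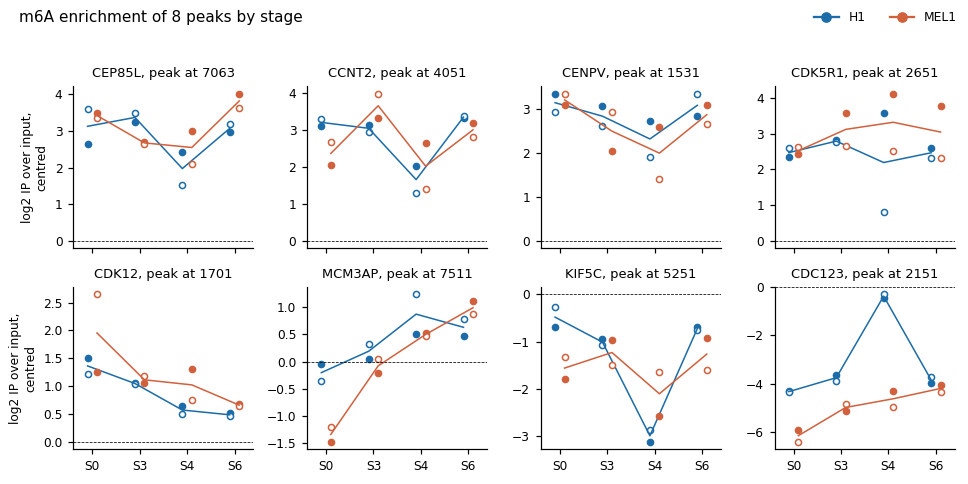
Log2 IP over input, centred on the median of all peaks, of 8 member peaks at the 4 stages, each point 1 preparation (blue H1, orange MEL1, filled replicate 1, open replicate 2). CCNT2 peak 4051 dips at S4 in both lines, CDC123 peak 2151 rises at S4 in H1 only, and KIF5C peak 5251, with 0 IP reads at S4, drops there.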

How the data were processed

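RNA from 16 preparations of H1 and MEL1 cells was profiled as input and as m6A IP, giving 32 libraries. The deposited table holds raw counts of reads, which the authors made with MeRIPtools from 50-bp bins of Ensembl 94 genes, one value for each merged peak and library, with no normalization. The aligner and genome build are not given in the sources used here. Gene counts had been planned, but the table is by merged peak, so input counts were summed over the peaks of a gene here. A gene's level therefore covers its peak regions alone. Of 7978 gene identifiers 7938 matched a symbol.

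Genes and peaks with a total of at least 10 reads were tested by quasi-likelihood with TMM scaling (edgeR 4.0.16 on limma 3.58.1, in R 4.3.3), with p adjusted over all genes or peaks by the Benjamini-Hochberg method, and called at an adjusted p under 0.1 and at least 2-fold. Expression models held stage and cell line. Models for m6A held line, stage, library type, line by library type and stage by library type over all 32 libraries. Standard errors were derived from the F statistics. CPM used TMM-scaled library sizes, and 1 CPM was added before the log2 of IP over input. The study's own tool, DESeq2 (1.42.0), RLE scaling, TMM within library types, thinned IP, no filter, no mitochondrial transcripts, no cell line, a replicate block, each line alone and leaving out each library were run as alternatives. The expression fit for S3 against S0 and the m6A fit for S6 against S0 were tested on simulated data, and the other steps were not. Python 3.11.15, pandas 2.3.3 and matplotlib 3.10.9 were used for summaries and plots.

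Members, lists and tests were chosen with earlier results of these data known, and roles were arranged after the table was seen. Named genes were 54 core names, in each comparison the 4 called members that rose most and the 4 that fell most, the 3 called peaks each way, the 5 peaks with the highest mean ratio and at least 20 input reads at each stage, and genes that the text singles out after their values were seen (CDC123, CDK18, CENPB, CENPS, CEP85 and CDK10 among them). Counts shared with near-identical genes (CDK11A and CDK11B, CEP170 and CEP170P1, CENPS and CENPS-CORT) are uncertain. The floor of 3 reads covers counting error only. No library was left out.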

Additional observations from a re-analysis of the deposited data

Results flagged for a closer look

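The change of the members from the undifferentiated stage differed between the cell lines. By the line by stage interaction in edgeR's quasi-likelihood test, 73 of 153 members were called for S3 against S0, where 34.0% of all genes were, and 38 for S6 against S0, where 25.1% of all genes were and the share of members was near that. The named genes among those called follow as log2 change in MEL1 minus log2 change in H1.

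At S3 the MEL1 change was lower for the licensing genes MCM2 (-1.32), MCM3 (-1.23), MCM4 (-2.10), MCM6 (-1.30) and ORC1 (-1.55) and for the mitotic cyclin and CDC25 genes CCNB1 (-1.65), CDC25A (-1.76), CDC25B (-2.21) and CDC25C (-1.85). It was also lower for AURKA (-1.17) and PLK2 (-2.28) among the Aurora and polo kinases, for BUB1 (-2.12), BUB1B (-1.47), CENPF (-3.05) and CENPL (-2.85) at the kinetochore, for the motors KIF11 (-2.21), KIF20A (-2.20), KIF1A (-1.13), KIF5C (-1.84) and KIF21B (-5.61) and for NCAPD2 (-1.85). Among G1 regulators it was lower for CCND1 (-3.41), CCND2 (-2.92), CDKN1A (-1.23), E2F1 (-2.35), E2F2 (-4.72), E2F3 (-1.14) and E2F7 (-5.82). It was higher for CDK2 (2.53), CDK10 (3.03) and CDK20 (3.56), for the inhibitors CDKN1C (5.90) and CDKN2B (3.77), for CENPA (1.43) and for the kinesins KIF13B (3.65) and KIF26B (2.30). The KIF21B value is fitted against MEL1 libraries with 0 reads at S3 and is no bound. The CDK20 values, here and at S6, are fitted against MEL1 S0 libraries at or below the floor. The CDKN2B call rested on 1 library, MEL1 S3 replicate 2.

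At S6 the MEL1 change was lower for MCM4 (-1.92), CDC25A (-1.0), CENPF (-1.50), E2F2 (-3.85), E2F7 (-3.37), CDK5R1 (-3.21), CEP170 (-2.48), KIF21B (-1.98) and KIF5C (-1.80), and higher for CCND1 (1.64), CDKN1A (1.99), CDK10 (3.47), CDK20 (3.98), KIF12 (3.23) and KIF13B (3.01). The hepatic marker genes were at 2863 to 2944 CPM in MEL1 and 83.35 to 91.8 CPM in H1 at S6, and the neuronal genes at 504.2 to 528.8 CPM and 3410 to 3539 CPM, and their part in these differences was not tested. Groups here hold 2 preparations, which is too few to look for a single preparation that stands apart within a group.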

How the results depend on the processing

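Counts of members called for S3 and S6 against S0 and for differences between lines stayed within 1.5 times under every alternative tried, except that the H1 libraries alone gave 30 called members for S3 against S0 in place of 52. Counted over the division genes in the lower direction, a count chosen after seeing the data, S3 against S0 (26) gave 9 in H1 alone, 38 in MEL1 alone, 20 without cell line in the model and 23 to 30 without 1 library, and S6 against S0 (32) gave 23, 32, 28 and 28 to 34. Leaving out 1 library at a time gave 46 to 61 called members for S3 against S0 (52), 50 to 61 for S6 against S0 (59), 37 to 44 for the difference in level between lines (40), 64 to 74 for the line difference in the S3 change (73) and 32 to 48 in the S6 change (38). The line differences without mitochondrial transcripts, a fit chosen after seeing the data, gave 40, 74 and 39. S4 against S3 (1 call) gave 3 in DESeq2, 4 in H1 alone, 12 in MEL1 alone and 0 to 3 without 1 library. S6 against S4 (7 calls) gave 11 in DESeq2, 3 without cell line in the model, 25 in MEL1 alone and 3 to 8 without 1 library.

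Counts of m6A changes were far less stable. S3 against S0 (0 peaks) gave 1 in DESeq2, 30 in H1 alone, 38 in MEL1 alone and 0 to 0 without 1 library. S4 against S3 (43) gave 21 with median-ratio scaling (RLE), 21 with TMM within input and IP, 26 with IP thinned to equal depth, 271 in H1 alone and 2 to 61 without 1 library. The share of all peaks called in that H1 fit was not counted, so 271 stands without its background. S6 against S4 (41) gave 69 in DESeq2, 251 in H1 alone and 21 to 59 without 1 library. For its H1 fit the share of all peaks was not counted either, so 251 also stands without its background. S6 against S0 (4) gave 35 in DESeq2, 2 with RLE, 2 with TMM within input and IP, 15 with IP thinned, 51 in H1 alone, 60 in MEL1 alone and 0 to 9 without 1 library. IP above input at S0 (122 peaks) gave 67 in DESeq2, 64 with RLE and 99 to 113 without 1 library, and at S3 (122) 79, 74 and 110 to 111. At S4 (85) and S6 (116) the ranges without 1 library were 74 to 94 and 106 to 111. The cause of these shifts was not tested.

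With the replicate block, S4 against S3 had 0 called members and the m6A change S6 against S0 had 7 peaks. The block moved no other count by over 1.5 times (50, 6 and 54 members for S3 against S0, S6 against S4 and S6 against S0, and 49 and 48 peaks for S4 against S3 and S6 against S4). Same-numbered input libraries correlated across stages at -0.0378 to 0.0602 in H1 and at 0.104 to 0.168 in MEL1. A pairing, taken as every correlation above 0.1, was thus met in MEL1 and not in H1, and calls of named genes lost with the block are given beside them. Named peaks that lost their call with it were CEP131 peak 2217, CDK9 peak 801, PLK2 peak 919 for S6 against S4 and NCAPD2 peak 1451.

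Among called results of the core names and of the largest changes, direction turned in 7 cases. Results not called and genes singled out later, such as CDK10, are not in this count. In H1 alone CENPF gave 0.16 and CDK2 -0.071 at S3 and E2F7 0.39 at S6 against S0, and the m6A values of PLK2 peak 919 and CDK9 peak 801 for S6 against S4 were 0.52 and 2.96. CCNG1 peak 301 gave -0.73 for S4 against S3 in MEL1 alone. The line difference of CDKN2B in the S3 change ranged from -1.04 to 4.72 without 1 library. None of the called results counted here turned direction under another scaling or without the filter on low counts. Depth limits the peaks with few IP reads. The MEL1 S4 IP libraries enter each comparison with S4 and were the shallowest, and whether their depth limited these counts was not tested.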
